A study of Saccharomyces cerevisiae with 9 samples.

Results

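The 5 genes described here, IME1, UME6, IME2, REC102 and SGA1, take part in meiosis and spore formation in the budding yeast Saccharomyces cerevisiae. They were picked by name, as genes of that programme, with their values on these arrays already known. They are 5 of the 5449 genes that the array annotation names, and each was read by 1 probe set. The arrays were made to follow how yeast responds to succinic acid, an intermediate of respiration that yeast can also release. There were 9 single-colour arrays, 1 for each of the strains KF7, NBRC2018 and NBRC1958 at each of 3 added amounts of the acid, 0, 20 and 60 g/L. All samples were grown in YPD, a rich glucose medium, and shaken at 200 rpm and 35 °C for 6 hours before total RNA was taken. No transgene or deletion is named for any strain, and the mating type and ploidy of the strains are not given in the sources used here.

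Yeast cells enter meiosis when they are diploid and starved of nitrogen and of fermentable sugar. The activator Ime1 then joins Ume6, a protein bound to the URS1 element of early meiotic genes, and turns it from a repressor into an activator. Early genes such as the kinase IME2 and the recombination gene REC102 follow, and genes of spore maturation such as SGA1 come last. In rich medium with glucose this programme is held off.

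The values are array signals in arbitrary units, so levels are compared between arrays for 1 gene and not between genes. Over the 5449 genes the median signal was 294 to 311 on the 9 arrays. The background, taken as the 95th percentile of 1746 probe sets for another organism on the same arrays, was 14.7 to 15.9, and 96.7% to 97.5% of the genes were above it. Differences are given on the log2(signal + 16) scale, which understates changes of dim genes. Each dose had 1 array per strain, so SDs at a dose are over the 3 strains and SDs of a strain are over its 3 doses. Whether the arrays stand for separate cultures is not stated in the labels.

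IME2 and REC102 had higher signals at 60 g/L than at 0 g/L in all 3 strains, by 1.54 to 4.39 times. SGA1 at 60 g/L was 3.82 times its 0 g/L signal in KF7 and 2.86 times in NBRC2018, but 1.04 times in NBRC1958, where it was high at every dose. IME1 and UME6 had no common direction over the strains. Signals at 20 g/L lay nearer to those at 0 g/L than to those at 60 g/L for IME2 and REC102 in every strain, with the widest relative gap in NBRC1958, where REC102 had 36.8 at 20 g/L and 24.3 at 0 g/L. These dose differences were known when the genes were picked, so they are given as descriptions.

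**Figure D1:**
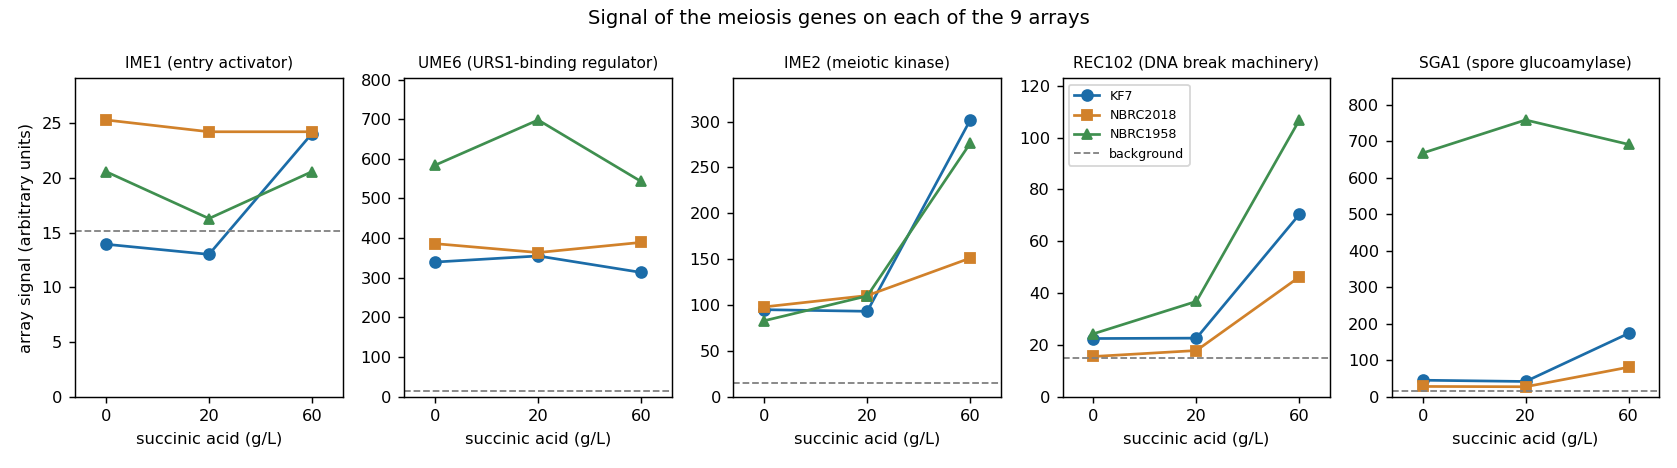
Array signal (y axis, arbitrary units, linear, a separate scale per panel) against added succinic acid (x axis, g/L) for IME1, UME6, IME2, REC102 and SGA1, with 1 point per array and a line per strain; the dashed line is the background of 15.1, taken over all arrays from the probe sets of another organism as above. IME2 and REC102 are highest at 60 g/L in each strain, and the NBRC1958 line lies far above the others for SGA1.

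IME1 (YJR094C) encodes the activator that starts meiosis. In KF7 its signal was 13.9, 13.0 and 24.0 at 0, 20 and 60 g/L. In NBRC2018 it was 25.3, 24.2 and 24.2, and in NBRC1958 it was 20.6, 16.3 and 20.6. All 9 values lay near the background, and the KF7 arrays at 0 and 20 g/L lay below it. KF7 was highest at 60 g/L and NBRC2018 at 0 g/L, and the doses overlapped across strains. The mean was 22.9 ± 2.06 at 60 g/L and 19.9 ± 5.70 at 0 g/L (SD, n = 3 strains each), with a fitted log2 difference of 0.13 ± 0.114 (SE). The deposited IME1 value was the same to within 1e-06 on the NBRC1958 arrays at 60 and 0 g/L, and on the NBRC2018 arrays at 60 and 20 g/L. Such ties were found for 24 and 37 of the 5449 genes in those 2 pairs of arrays, so no change within these pairs can be read for IME1.

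UME6 (YDR207C) encodes the DNA-binding regulator that represses early meiotic genes during growth. Its signal in KF7 was 339.7, 355 and 314 at 0, 20 and 60 g/L. In NBRC2018 it was 386, 364 and 389, and in NBRC1958 it was 584, 698 and 543. The doses overlapped, and every NBRC1958 array was above every array of the other strains. The mean was 415 ± 117 at 60 g/L and 437 ± 130 at 0 g/L (SD, n = 3 strains each), and the fitted difference was -0.07 ± 0.102 (SE).

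IME2 (YJL106W) encodes a protein kinase made early in meiosis, which promotes the premeiotic round of DNA replication and the later divisions. Its signal in KF7 was 95.0, 93.2 and 302 at 0, 20 and 60 g/L. In NBRC2018 it was 98.0, 110.3 and 151, and in NBRC1958 it was 82.9, 109.9 and 276. The 60 g/L arrays were all above the 0 g/L arrays, with NBRC2018 the lowest of them. The mean was 243 ± 80.6 at 60 g/L and 92.0 ± 7.97 at 0 g/L (SD, n = 3 strains each). At 60 g/L the signal was 3.18 times that at 0 g/L in KF7, 1.54 times in NBRC2018 and 3.33 times in NBRC1958, and the fitted difference was 1.21 ± 0.216 (SE). Total RNA of a culture cannot tell more cells that express a gene from more RNA per cell.

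REC102 (YLR329W) encodes a protein that the Spo11 enzyme needs to make the DNA breaks of meiotic recombination. Its signal in KF7 was 22.5, 22.6 and 70.4 at 0, 20 and 60 g/L. In NBRC2018 it was 15.5, 17.8 and 46.2, and in NBRC1958 it was 24.3, 36.8 and 107. All 3 strains were highest at 60 g/L, and the 0 g/L arrays lay not far above the background. The mean was 74.5 ± 30.5 at 60 g/L and 20.8 ± 4.62 at 0 g/L (SD, n = 3 strains each). The signal at 60 g/L was 3.13 times that at 0 g/L in KF7, 2.98 times in NBRC2018 and 4.39 times in NBRC1958. The fitted difference was 1.25 ± 0.126 (SE). Because REC102 is dim, this value depends on the offset, and it was 0.69 with an offset of 64 and 1.74 with an offset of 1.

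SGA1 (YIL099W) encodes a glucoamylase that breaks down glycogen in sporulating cells. Its signal in KF7 was 45.4, 42.0 and 174 at 0, 20 and 60 g/L. In NBRC2018 it was 28.3, 27.5 and 81.0, and in NBRC1958 it was 668, 758 and 692. KF7 and NBRC2018 were highest at 60 g/L, whereas NBRC1958 was highest at 20 g/L and above all arrays of the other strains at every dose. The mean of 315 ± 329 at 60 g/L and 247 ± 364 at 0 g/L (SD, n = 3 strains each) therefore mixes very different levels. The log2 difference of 60 and 0 g/L was 1.63 in KF7, 1.13 in NBRC2018 and 0.05 in NBRC1958. Its fitted mean over strains was 0.94 ± 0.311 (SE), which became 1.42 when the 60 g/L array of NBRC1958 was left out, 1.38 with no NBRC1958 array, 0.56 when that of KF7 was left out and 0.59 with no KF7 array.

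At 20 g/L the fitted differences to 0 g/L were small for all 5 genes, at -0.09 for IME1, 0.08 for UME6, 0.16 for IME2, 0.17 for REC102 and 0.02 for SGA1. Differences of 60 and 20 g/L were 1.05 for IME2, 1.09 for REC102, 0.91 for SGA1, 0.21 for IME1 and -0.14 for UME6. In the limma fit over all genes, 2 of the 5 (IME2 and REC102) passed an adjusted p of 0.05 at 60 against 0 g/L, where 21.6% of all genes did. Both also passed between 60 and 20 g/L, as did 14.8% of all genes. SGA1 did not pass at 60 against 0 g/L (limma, adjusted p = 0.066), but it did when the 60 g/L array of NBRC1958 was left out (0.0062) or that whole strain was (0.035), within 0.0062 to 0.76 over the alternatives. The IME2 call at 60 against 0 g/L (limma, adjusted p = 0.0103) was lost without the 0 g/L array of NBRC1958 (0.0628), without strain NBRC1958 (0.109) and without strain KF7 (0.0543), within 0.0024 to 0.109. Its call at 60 against 20 g/L (limma, adjusted p = 0.023) was lost when any 1 of 4 arrays was left out (0.0547 without the 20 g/L array of NBRC2018, 0.0719 without the 60 g/L array of NBRC1958, 0.0825 without the 20 g/L array of KF7 and 0.094 without that of NBRC1958). It was also lost without strain NBRC1958 (0.151), without strain KF7 (0.105) and with no strain block (0.128). The REC102 calls were lost only with no strain block (limma, adjusted p = 0.0595 at 60 against 0 g/L and 0.148 at 60 against 20 g/L, beside 0.0024 and 0.0057 with it). None of the 5 passed at 20 against 0 g/L, where 1 gene of 5449 (0.0184%) did and 185 had an unadjusted p under 0.05, none of them among the 5. In 2 of the 5, again IME2 and REC102, all 60 g/L arrays were above all 0 g/L arrays, as they were in 7.96% of all genes. These counts come from the contrasts on which the genes were picked and carry no weight of their own. The comparisons share the same 0, 20 and 60 g/L arrays.

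**Figure D2:**
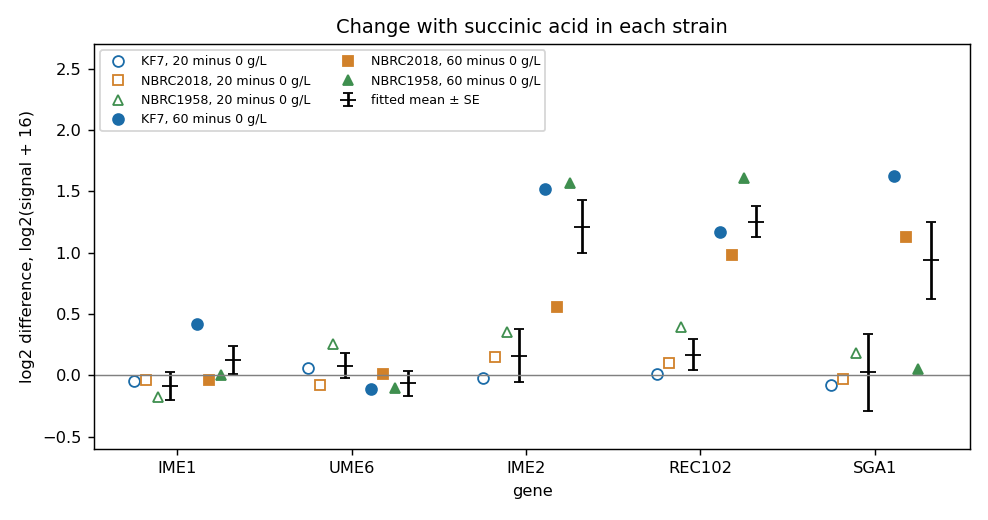
Log2 difference of signal + 16 against 0 g/L (y axis) for each gene (x axis), at 20 g/L (open symbols) and 60 g/L (filled symbols) in each strain, with the fitted mean over strains ± SE in black. At 60 g/L IME2 and REC102 lie above 0 in all 3 strains, SGA1 in KF7 and NBRC2018 but near 0 in NBRC1958, and UME6 between -0.11 and 0.01.

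The fitted change with dose was not the same size in each strain, but no such difference passed a test. A straight line on dose gave IME2 a log2 change over 60 g/L of 1.63 in KF7, 0.56 in NBRC2018 and 1.60 in NBRC1958. For SGA1 the change was 1.76 in KF7, 1.22 in NBRC2018 and 0.01 in NBRC1958. REC102 had 1.25 in KF7, 1.03 in NBRC2018 and 1.64 in NBRC1958. In the limma F test for a difference of slopes between strains, 0 of the 5449 genes (0%) passed an adjusted p of 0.05 and 569 had an unadjusted p under 0.05. The adjusted p of this F test was 0.46 for SGA1 (unadjusted 0.033), 0.48 for IME2 (0.052) and 0.63 for REC102 (0.27). The differences in slope given here are therefore descriptions.

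SGA1 and UME6 differed between strains at all doses, and both were highest in NBRC1958. SGA1 averaged 87.0 ± 75.1 in KF7, 45.6 ± 30.7 in NBRC2018 and 706 ± 47.1 in NBRC1958 (SD, n = 3 doses each). UME6 averaged 336 ± 21.0 in KF7, 379.7 ± 13.9 in NBRC2018 and 608 ± 80.4 in NBRC1958. Strain contrasts do not use the dose differences, but the strain levels were also known when the genes were picked, so the tests below are not independent support.

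SGA1 was lower in KF7 than in NBRC1958 by a log2 difference of -3.04 ± 0.311 (SE), with an adjusted p of 0.0011 in limma. It was lower in NBRC2018 than in NBRC1958 by -3.66 ± 0.311, with an adjusted p of 0.00086. The gap to NBRC1958 was smaller at 60 g/L. In KF7 it was -3.48, -3.74 and -1.90 at 0, 20 and 60 g/L, and in NBRC2018 it was -3.95, -4.15 and -2.87. Both calls held under each alternative that was run, including leaving out each array in turn. KF7 was 0.62 ± 0.311 above NBRC2018, which did not pass the test (limma, adjusted p = 0.20). It passed when the 60 g/L array of NBRC1958 was left out (limma, adjusted p = 0.0203) and in a fit of only these 2 strains (0.0473), within a range of 0.0203 to 0.60 over the alternatives.

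UME6 was lower in KF7 than in NBRC1958 by -0.82 ± 0.102 (limma, adjusted p = 0.0023). It was also lower in NBRC2018 than in NBRC1958, by -0.65 ± 0.102 (limma, adjusted p = 0.0061). KF7 and NBRC2018 differed by -0.17 ± 0.102, which did not pass (limma, adjusted p = 0.27). The first 2 calls held under each alternative that was run.

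REC102 averaged 38.5 ± 27.6 in KF7, 26.5 ± 17.1 in NBRC2018 and 56.0 ± 44.4 in NBRC1958 (SD, n = 3 doses each), and these ranges overlapped. Once dose was in the fit, it was lower in NBRC2018 than in NBRC1958 by -0.66 ± 0.126 (limma, adjusted p = 0.0118), a call that did not hold once the 20 g/L array of NBRC1958 was left out (0.0598, the highest adjusted p in a range of 0.0044 to 0.0598 over the alternatives). The other strain differences of REC102 passed only with an offset of 1. IME2 averaged 163 ± 120 in KF7, 120 ± 27.8 in NBRC2018 and 156 ± 105 in NBRC1958, with no strain difference past the test. IME1 averaged 17.0 ± 6.12 in KF7, 24.6 ± 0.622 in NBRC2018 and 19.1 ± 2.47 in NBRC1958. The largest of its strain differences, -0.31 ± 0.114 for KF7 against NBRC2018, passed only when the 60 g/L array of KF7 was left out (limma, adjusted p = 0.0352, within 0.0352 to 0.31 over the alternatives, and 0.096 with all arrays).

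In all, 2 of the 5 genes passed between KF7 and NBRC1958, where 20.5% of all genes did, and 0 of 5 between KF7 and NBRC2018, where 18.1% did; 2 of the 5, IME1 and REC102, had an unadjusted p under 0.05 there. Between NBRC2018 and NBRC1958, 3 of the 5 passed, against 26.4% of all genes.

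SGA1 was not alone on its stretch of chromosome in being higher in NBRC1958. Of the 4 nearest genes on each side that the array reads, XBP1, FMC1 and FYV10 were lower in both other strains. PRK1, the farthest, differed by -0.29 in KF7 (limma, adjusted p = 0.0478) and did not pass in NBRC2018. SHQ1, DPH1, YIL102C and BMT5 passed in neither. Against NBRC1958, 20.5% of all genes passed in KF7 and 26.4% in NBRC2018. These neighbours were looked up by position in a reference gene table of strain S288C after the SGA1 values had been seen. FMC1, an assembly factor of the mitochondrial ATP synthase, had signals of 256, 235 and 225 at 0, 20 and 60 g/L in KF7, 236, 247 and 241 in NBRC2018, and 532, 460.5 and 506 in NBRC1958. It was lower than in NBRC1958 by -1.02 in KF7 (limma, adjusted p = 0.00056) and by -1.0 in NBRC2018 (0.00093). XBP1, a stress-induced transcriptional repressor on the other side, averaged 41.4 ± 11.0 in KF7, 24.9 ± 1.82 in NBRC2018 and 86.5 ± 10.0 in NBRC1958 (SD, n = 3 doses each). Its differences to NBRC1958 were -0.85 in KF7 (limma, adjusted p = 0.0034) and -1.32 in NBRC2018 (0.0009).

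FYV10, a subunit of a ubiquitin ligase that removes gluconeogenic enzymes, was lower than in NBRC1958 by -0.79 in KF7 (limma, adjusted p = 0.0163) and by -0.98 in NBRC2018 (0.0081). The first of these did not hold when the 0 or 20 g/L array of NBRC1958, or the 20 g/L array of KF7, was left out. Over the other 190 genes of this chromosome the median difference to NBRC1958 was 0.02 in KF7 and 0.01 in NBRC2018. None of FMC1, XBP1 and FYV10 passed at 60 against 0 g/L. Some yeast strains carry STA genes, whose coding sequence resembles SGA1. Whether the SGA1 probe set reads such a gene in these strains was not tested.

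**Figure D3:**
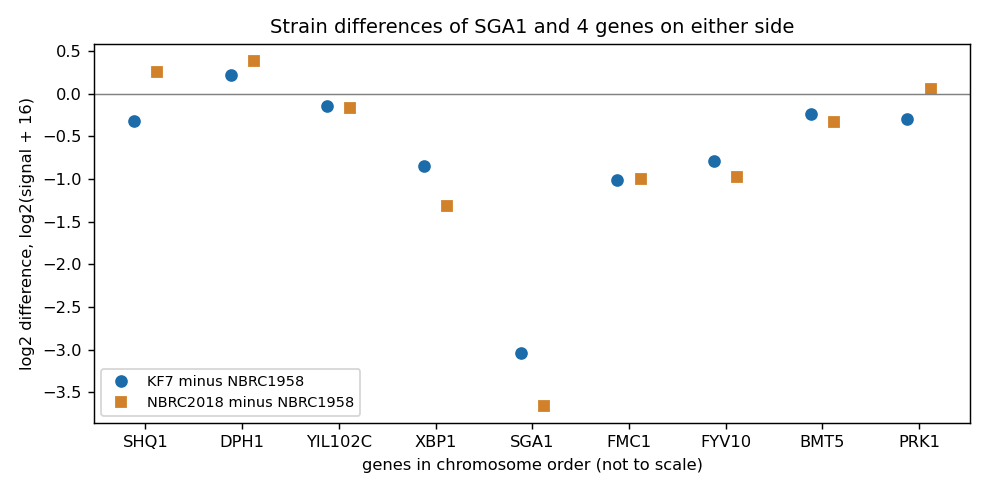
Log2 difference of signal + 16 to NBRC1958 (y axis) for SGA1 and the 4 nearest genes on each side that the array reads (x axis, in chromosome order, not to scale), in KF7 (circles) and NBRC2018 (squares), each a fitted mean over 3 doses. SGA1 lies lowest, XBP1, FMC1 and FYV10 lie between -0.79 and -1.32, and the others lie nearer to 0.

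IME2 also had neighbours that were higher at 60 g/L, again looked up after its values had been seen. PRM10, a gene first described as regulated by mating pheromone, had signals of 64.2, 75.9 and 432 at 0, 20 and 60 g/L in KF7, 105.6, 116 and 373 in NBRC2018, and 171, 232 and 903 in NBRC1958. Its mean was 569.6 ± 290.3 at 60 g/L and 114 ± 53.6 at 0 g/L (SD, n = 3 strains each), a fitted log2 difference of 2.15 (limma, adjusted p = 0.0007). The gene between PRM10 and IME2, YJL107C, averaged 96.8 ± 58.9 at 60 g/L and 40.7 ± 7.50 at 0 g/L, a difference of 0.88 (limma, adjusted p = 0.0322) that did not hold when any 1 of 5 arrays was left out. SET4, on the other side of IME2, did not pass (0.18, limma, adjusted p = 0.31). Nor did GZF3, UTP10, PAM16, GSM1 and MEF2, the rest of the 4 nearest genes on each side, where 21.6% of all genes passed. Some neighbours of IME1, REC102 and UME6 also passed, and others did not. At 60 against 0 g/L, FIP1 beside IME1 differed by -0.62 (limma, adjusted p = 0.0068) and TMA10 near REC102 by 0.85 (0.0259). GRR1 near IME1 differed by 0.28 (limma, adjusted p = 0.0465) and RPS25B near REC102 by 0.36 (0.045). For KF7 against NBRC1958, FIP1 differed by 0.67 (limma, adjusted p = 0.0039), UPC2 near UME6 by -1.39 (0.0035) and MSS4 beside UME6 by -0.42 (0.0318). The rest of the 4 nearest genes on each side of IME1, REC102 and UME6 did not pass in these 2 comparisons. Over all genes 21.6% and 20.5% passed in them.

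Across the 9 arrays IME2 and REC102 had the closest patterns among the 5 genes, with a Pearson r of 0.91. SGA1 and UME6 followed with 0.84, and REC102 and SGA1 had 0.59. The 9 points share strains and doses, so these values only restate that IME2 and REC102 were high at 60 g/L and that SGA1 and UME6 were high in NBRC1958. IME1 had no r above 0.39 with any of the others.

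Genes elsewhere in the genome, picked as the closest of all those searched, had patterns as close. Among the genes with a mean signal outside the lowest 20% (4358 or 4359 for each of the 5), the 3 closest to REC102 were STI1, a co-chaperone of Hsp90, with an r of 0.99, TBS1 with 0.98 and the mitochondrial protein gene MIX17 with 0.98. STI1 had signals of 1232, 1202 and 3191 at 0, 20 and 60 g/L in KF7, 1069.9, 1237 and 2477 in NBRC2018, and 1379, 1603 and 4544 in NBRC1958. Its order of strains at 60 g/L was that of REC102, which its choice by correlation made likely. Closest to IME2 were ADD37 (0.97), the peroxisomal membrane gene PEX15 (0.96) and the vacuolar proton pump subunit gene VMA16 (0.94). SGA1 was most like YOL159C-A (0.99), the mitochondrial protease gene AFG3 (0.99) and HBT1 (0.98). UME6 was most like IRC6 (0.97), the mitochondrial carrier gene YEA6 (0.96) and PSY3 (0.96), whose protein acts in recombinational repair. IME1 was most like the copper transporter gene CTR3 (0.94), ECM3 (0.92) and DIA1 (0.92), but its own values were near the background.

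Beyond the 5 genes, genes of the meiosis and sporulation programme differed in both directions at 60 g/L. Of 109 other genes of the programme, 14 were higher (12.8%, against 9.03% of all genes) and 13 lower (11.9%, against 12.5%) at 60 than at 0 g/L. Their median log2 difference was 0.05, beside -0.03 over all genes. In 11 of them (10.1%) all 60 g/L arrays were above all 0 g/L arrays, beside the 7.96% of all genes given above. Of these 109 genes 0 passed at 20 against 0 g/L in limma, with 5 at an unadjusted p under 0.05, and 20 (18.3%) passed at 60 against 20 g/L. Most of the programme was dim, with 27 of the 109 genes outside the lowest 20% of all genes by mean signal. Its shares are therefore set beside those of mostly brighter genes. When that lowest 20% was left out, 12 of these 27 brighter genes passed at 60 against 0 g/L, beside 986 of the 4359 genes kept. The 27 calls at 60 against 0 g/L depended on single arrays. They fell to 5 when the 0 g/L array of NBRC1958 was left out and to 15 when that of KF7 was, and they numbered 6 without NBRC2018, 13 without KF7 and 0 without NBRC1958.

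**Figure D4:**
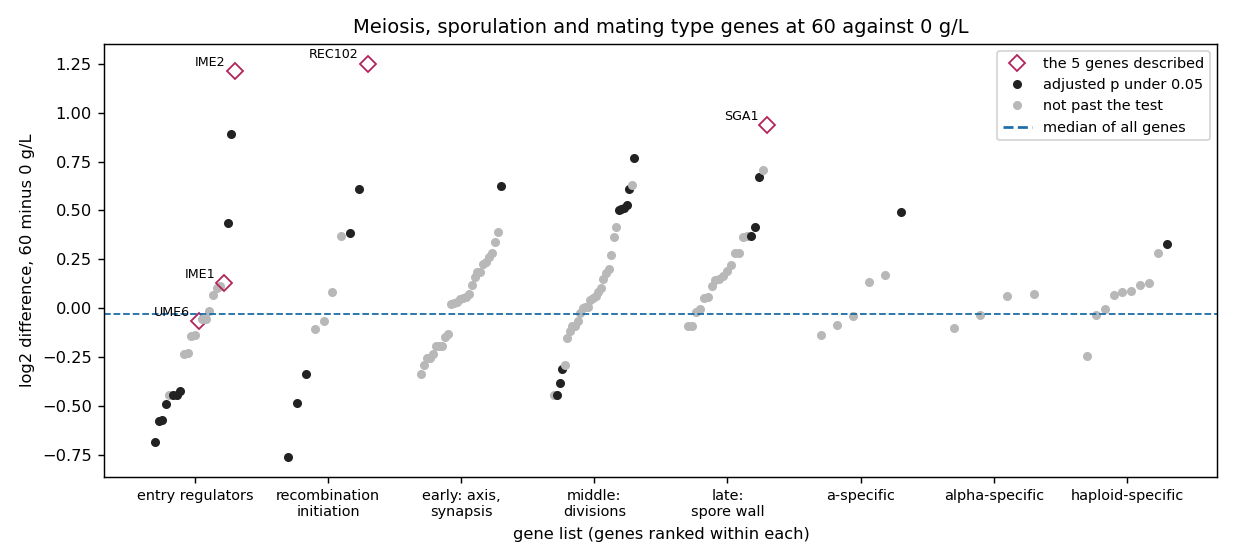
Log2 difference of signal + 16 at 60 against 0 g/L (y axis, fitted mean over strains) for each gene of 8 lists (x axis, genes ranked within a list), black where the adjusted p was under 0.05, with the 5 genes described here as open diamonds and the median of all genes as a dashed line at -0.03. IME2 and REC102 lie above the other genes of their lists, while the lists themselves lie on both sides of 0.

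Among 20 other regulators of meiotic entry, 2 were higher at 60 than at 0 g/L (10.0%, against 9.03% of all genes). Another 7 were lower (35.0%, against 12.5%), and the median of the 20 was -0.19. The genes that were lower included repressors of early meiotic genes. SSN8, the cyclin C of a repressing kinase module, averaged 85.5 ± 12.4 at 60 g/L and 148 ± 27.5 at 0 g/L, a difference of -0.68 (SD, n = 3 strains each; limma, adjusted p = 0.0087). UME1, a subunit of the Rpd3 deacetylase complex that Ume6 recruits, fell by 0.58 (limma, adjusted p = 0.0077), and the deacetylase gene RPD3 itself by 0.45 (0.0118). The kinase genes RIM11 and MCK1, whose products promote meiotic entry, fell by 0.49 and 0.44. MUM2, a member of the complex that methylates meiotic mRNA, fell by 0.57, and SDH5, an assembly factor of succinate dehydrogenase that is also known as EMI5, fell by 0.42. The 2 that were higher were SLZ1, another member of the mRNA methylation complex (0.89; limma, adjusted p = 0.0337), and ISW2, a chromatin remodelling enzyme that Ume6 recruits (0.44).

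Of the 9 other genes of DNA break formation, 2 were higher (22.2%) and 3 lower (33.3%) at 60 g/L. Over all genes these shares were 9.03% and 12.5%. MEI4 and REC114, which act with Rec102 at break sites, differed by 0.61 (limma, adjusted p = 0.0118) and 0.38 (0.0291). MEI4 averaged 34.6 ± 5.11 at 60 g/L and 17.1 ± 2.65 at 0 g/L (SD, n = 3 strains each). REC107, a partner of both, fell by 0.48, SKI8, which also acts in mRNA decay, fell by 0.76 (limma, adjusted p = 0.0035), and the nuclease gene MRE11 fell by 0.34. Among 28 genes of chromosome axis, synapsis and strand exchange only MER1, a splicing activator of meiotic transcripts, passed, at 0.63 (limma, adjusted p = 0.0083). This was 3.57% of the list, beside 21.6% of all genes. Of these 28 genes, 16 were above background on all arrays, and 1 had a mean signal outside the lowest 20% of all genes.

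Of 32 genes of the meiotic divisions and of prospore membrane growth, 6 were higher (18.8%) and 3 lower (9.38%) at 60 g/L. Over all genes these shares were 9.03% and 12.5%. The higher ones were SPO21 and ADY4 of the meiotic spindle pole plaque (0.77 and 0.50), SPO73 (0.61), the MAP kinase gene SMK1 (0.53), the sporulation septin SPR3 (0.51) and the RNA-binding protein gene MIP6 (0.51). The lower ones were SUM1, a repressor of middle meiotic genes (-0.44), the cyclin gene CLB3 (-0.38) and SPO75 (-0.31). Of 20 other late genes, 3 were higher and 0 lower, namely LDS2 (0.67), the dityrosine synthesis gene DIT1 (0.42) and OSW2 (0.37). All of these calls are from limma at an adjusted p of 0.05. MIP6, MUM2, SKI8, SSN8 and LDS2 passed whichever single array was left out, while SPO75 and OSW2 failed whichever of the 9 was left out. Within each list the genes past the 3 largest differences were named because they complete the count.

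Between strains the share of the programme past the test was near or below that of all genes. Of the 109 genes, 23 (21.1%) passed between KF7 and NBRC1958, 17 (15.6%) between KF7 and NBRC2018, and 26 (23.9%) between NBRC2018 and NBRC1958, beside 20.5%, 18.1% and 26.4% of all genes. SPO20, a membrane fusion protein gene of the prospore membrane, was higher in KF7 than in NBRC1958 by 1.14 (limma, adjusted p = 0.0006). The spore wall gene SPS100 was lower in KF7 than in NBRC1958 by -0.97 (0.0021) and in NBRC2018 than in NBRC1958 by -0.92 (0.0031). SPO73 and SPS4 were higher in KF7 than in NBRC2018 by 1.47 (0.00025) and 1.39 (0.00054). RME1, a repressor of IME1, was lower than in NBRC1958 by -0.93 in KF7 (0.012) and by -0.74 in NBRC2018 (0.0238). The first did not hold when either of 2 arrays was left out (KF7 at 0 or 20 g/L), and the second when any 1 of 4 was. SLZ1 was higher in KF7 than in NBRC2018 by 0.85 (0.0445) and lower in NBRC2018 than in NBRC1958 by -0.81 (0.0401). The first was lost when any 1 of 7 arrays was left out and the second when any 1 of 6 was. The p-values of these strain differences are adjusted p-values of the same limma fit.

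Genes expressed by mating type were read as a check on the state of the cells. The 6 a-specific genes had signals of 19.9 to 106, and their sum was 283 to 329 at 0 g/L, 299 to 335 at 20 g/L and 305 to 341 at 60 g/L. All 6 were above background on all 9 arrays, where 96.7% to 97.5% of all genes were above it. The 4 alpha-specific genes had signals of 4.52 to 132, with sums of 128 to 153, 145 to 157 and 136 to 169 at the 3 doses. Of these only SAG1, the alpha-agglutinin gene, was above background on all 9 arrays, and STE3, a pheromone receptor gene, and MF(ALPHA)1, a pheromone gene, were below it on all. The 10 haploid-specific genes had sums of 312 to 446 at 0 g/L, 325 to 435 at 20 g/L and 381 to 479 at 60 g/L. By strain these were 312 to 381 in KF7, 419 to 446 in NBRC2018 and 434 to 479 in NBRC1958. Of the a-specific, alpha-specific and haploid-specific genes, 0 had a mean signal outside the lowest 20% of all genes. BAR1, which degrades alpha-factor, was higher at 60 than at 0 g/L by 0.49 (limma, adjusted p = 0.0203), and STE5, the scaffold of the pheromone pathway, by 0.33 (limma, adjusted p = 0.0353). BAR1 no longer passed when any 1 of 4 arrays was left out, and STE5 when any 1 of 8 was. The other genes of the 3 lists did not pass at 60 against 0 g/L. The shares that passed were 16.7%, 0% and 10.0% of the a-specific, alpha-specific and haploid-specific genes, beside 21.6% of all genes. The part of mating type in the values of the 5 meiosis genes was not tested.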

How the data were processed

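Biotin-labelled cRNA of 9 samples was hybridized to single-colour arrays, per the labels. The authors deposited intensity values on a linear scale (1.78 to 9468) for every probe set, and these were used as they stand because array medians were nearly equal. The scanning, summary and normalization steps are not given in the sources used. Of 10928 probe sets, 5498 named 1 S. cerevisiae gene each in a 2016 annotation. They stood for 5449 genes, and for 47 genes with several probe sets the one of highest mean was taken.

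Groups came from the strain and dose labels. An additive limma 3.58.1 model (R 4.3.3) of strain and dose was fitted to log2(signal + 16) of all 9 arrays, and Benjamini-Hochberg p-values were adjusted over all genes. It was tested on simulated data. No level filter was used: IME2, SGA1 and UME6 would have passed one at the lowest 20%, and IME1 and REC102 would not. The number of arrays limits the precision, and p-values measure only the spread between these samples.

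The 5 genes and all gene lists were chosen with earlier results of these data known. Further genes were named by rule: up to 3 per list with the largest difference at 60 against 0 g/L among those past the test, or the 2 brightest where none passed, up to 3 per strain contrast, and the 3 best correlated with each of the 5 genes. Strain served as the replicate block, since the replicates of a dose are the named strains. Alternatives were other offsets, filters and normalizations, probe sets of a gene averaged, an intensity trend, a robust fit, fits without the block or of only the arrays compared, dose as a rank, and leaving out arrays or strains.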

Additional observations from a re-analysis of the deposited data

Results flagged for a closer look

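Differences with dose that were positive in 1 strain and negative in another were listed for a closer look. There is 1 array per strain and dose, so none of these single differences between strains was tested. Slopes over all 3 doses were compared between strains by the limma F test given above, which 0 of the 5449 genes passed. On the log2 scale the highest and the lowest strain were 0.46 apart for IME1 at 60 against 0 g/L (0.42 in KF7, -0.04 in NBRC2018) and 0.37 apart for IME2 at 20 against 0 g/L (0.35 in NBRC1958, -0.02 in KF7). SGA1 had the widest gap, 1.84 at 60 against 20 g/L (1.71 in KF7, -0.13 in NBRC1958), and 0.26 at 20 against 0 g/L. UME6 changed sign between strains in all 3 dose comparisons, with gaps of 0.12 at 60 against 0 g/L, 0.33 at 20 against 0 g/L and 0.45 at 60 against 20 g/L. Of the alpha-specific genes, SAG1 had a gap of 0.32 and MF(ALPHA)2 one of 0.18 at 60 against 0 g/L.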

How the results depend on the processing

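Direction under the alternatives was followed for the 5 genes, for genes named by rule for a difference and for list genes past the test at 60 against 0 g/L. It was also followed for the neighbours PRM10, YJL107C, XBP1, FMC1 and FYV10, and not for other neighbours or the rest of all genes. Among those followed, no difference that passed its test changed direction under any alternative. Counts of genes past the test moved most. Over all genes, 1175 passed at 60 against 0 g/L, 1 at 20 against 0 g/L, 807 at 60 against 20 g/L, 1117 for KF7 against NBRC1958, 985 for KF7 against NBRC2018 and 1441 for NBRC2018 against NBRC1958. Leaving out each array gave, in the same order, 244 to 1111, 0 to 1, 135 to 813, 434 to 1137, 393 to 1223 and 440 to 1519, and 0 to 1 for the slopes and 5 to 23 for the 27 list genes. At 60 against 0 g/L the count was 244, 621 and 730 without NBRC1958 at 0 g/L, KF7 at 0 g/L and NBRC1958 at 60 g/L. At 60 against 20 g/L it was 135, 164 and 267 without NBRC1958, NBRC2018 and KF7 at 20 g/L, and 312 and 390 without NBRC1958 and NBRC2018 at 60 g/L. The 1 gene at 20 against 0 g/L was lost without any array but NBRC2018 at 0 g/L, the array whose removal gave 1 gene for the slopes. KF7 against NBRC1958 gave 486 and 434 without NBRC1958 at 0 and 20 g/L, and 533 and 621 without KF7 at 0 and 20 g/L. KF7 against NBRC2018 gave 393 and 585 without KF7 at 0 and 60 g/L, 417, 496 and 476 without NBRC2018 at 0, 20 and 60 g/L, and 644 without NBRC1958 at 20 g/L. NBRC2018 against NBRC1958 gave 541, 789 and 756 without NBRC2018 at 0, 20 and 60 g/L, and 495 and 440 without NBRC1958 at 0 and 20 g/L. Without the lowest 50% of genes the counts were 666 at 60 against 0 g/L, 454 at 60 against 20 g/L, 518 for KF7 against NBRC1958, 361 for KF7 against NBRC2018, 829 for NBRC2018 against NBRC1958 and 11 for the lists, which had 12 without the lowest 20%. Fewer genes were tested there. Without strain as a replicate block, 81 genes passed at 60 against 0 g/L, 0 at 20 against 0 g/L, 9 at 60 against 20 g/L and 1 of the lists. With only the arrays compared these were 497, 0, 421 and 10, and 638 for KF7 against NBRC2018. For 60 against 0 g/L, 20 against 0 g/L, 60 against 20 g/L and the lists the counts were 81, 0, 53 and 0 without NBRC1958, 396, 0, 67 and 6 without NBRC2018, and 641, 0, 344 and 13 without KF7, with fewer arrays in each fit. Apart from fewer genes or arrays, the cause was not tested. With 1 array per strain and dose, no strain's response to a dose has a replicate. The signal of IME1 near the background limits what can be read of it.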
